A study of Mus musculus with 6 samples.

Results

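The 10 genes described here are core and naive pluripotency factors of the mouse: Pou5f1, Nanog, Sox2, Klf2, Klf4, Klf5, Esrrb, Utf1, Sall4 and Lin28a. They were taken as a named list, and every cytosine position inside a gene or within 10 kb of it (mm10) was kept where all 6 libraries had at least 10 reads. This left 210 positions of the 1506 seen around these genes in any library, and 232840 positions were kept by the same minimum on chromosomes 1 to 19 and X. Sall4 held 54 of the 210, Esrrb 39, Utf1 33, Klf5 32, Sox2 25, Klf4 12, Lin28a 7, Klf2 4, and Pou5f1 and Nanog 2 each. A position was placed in the promoter (1 kb before to 0.5 kb after the transcript start), the gene body, or the upstream or downstream flank.

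The study measured DNA methylation by reduced representation bisulfite sequencing (RRBS), which cuts DNA with MspI at CCGG and therefore samples CpG-dense sequence most. The libraries were 3 lines of androgenetic haploid embryonic stem cells (AG-haESCs) whose titles carry deletions of the H19 DMR and the IG-DMR (DKO replicates 1, 2 and 3, at passages 32, 31 and 29), 2 wild-type AG-haESC lines (WT replicates 1 and 2, at passages 31 and 18), and 1 library of round spermatids (haploid germ cells of the testis formed by meiosis), which the submitters named as the control. All 6 samples were of the C57BL/6 strain, and the 5 lines came from androgenetic blastocysts, carry a single paternal chromosome set, and were cultured over a feeder layer with 2i added to the medium; 2i is a mix of kinase inhibitors that keeps ES cells naive. The labels do not say that the lines come from separate embryos, and the titles of DKO replicate 2 and WT replicate 1 share the name OG3, those of DKO replicate 3 and WT replicate 2 the name AGH-2. The spread over lines is therefore a spread between these samples, which may in part be technical.

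Pluripotency factors are transcriptional and post-transcriptional regulators that keep the cells of the early embryo able to form every tissue, and several of them bind one another's regulatory DNA. Cytosine methylation at CpG dinucleotides over a gene's start is a mark of stable silencing, while CpG islands, stretches rich in CpG, usually stay unmethylated in the germ line. Sperm DNA is highly methylated outside such islands, and ES cells held in 2i are known for low methylation across the genome.

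The sequences shown here are the 250 bases before the start of Sox2, Utf1, Pou5f1 and Nanog, chosen to span the range from a CpG-rich to a CpG-poor promoter. They are from RefSeq (GRCm38.p6, the same assembly as mm10, plus strand) and run 5′ to 3′, with every CG in capitals.
Sox2, chr3:34649745-34649994: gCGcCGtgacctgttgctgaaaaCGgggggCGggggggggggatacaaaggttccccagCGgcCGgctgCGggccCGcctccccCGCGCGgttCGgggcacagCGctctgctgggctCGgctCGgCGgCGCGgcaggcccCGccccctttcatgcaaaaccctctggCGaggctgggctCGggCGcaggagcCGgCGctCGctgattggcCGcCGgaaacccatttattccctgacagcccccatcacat
Utf1, chr7:139943606-139943855: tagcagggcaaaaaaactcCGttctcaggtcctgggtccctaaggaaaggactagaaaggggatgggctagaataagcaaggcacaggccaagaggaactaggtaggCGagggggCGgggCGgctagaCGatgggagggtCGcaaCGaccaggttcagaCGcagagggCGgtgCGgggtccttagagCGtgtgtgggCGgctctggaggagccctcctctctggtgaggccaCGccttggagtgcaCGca
Pou5f1, chr17:35505782-35506031: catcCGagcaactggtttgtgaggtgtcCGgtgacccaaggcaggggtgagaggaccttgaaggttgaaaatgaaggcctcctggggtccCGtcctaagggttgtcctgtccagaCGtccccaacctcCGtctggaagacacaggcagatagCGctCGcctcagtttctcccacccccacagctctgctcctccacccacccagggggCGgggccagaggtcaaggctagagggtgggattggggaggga
Nanog, chr6:122707239-122707488: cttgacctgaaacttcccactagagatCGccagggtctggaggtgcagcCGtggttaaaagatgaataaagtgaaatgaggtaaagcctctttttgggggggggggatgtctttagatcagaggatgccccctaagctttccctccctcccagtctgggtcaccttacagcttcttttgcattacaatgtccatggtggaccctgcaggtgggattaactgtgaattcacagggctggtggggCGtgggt

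These windows hold 27 CG in Sox2, 14 in Utf1, 8 in Pou5f1 and 3 in Nanog, against a median of 6 over 32619 promoters of the same length. The letters CCGG, which read the same on both strands, occur 3 times in the Sox2 window, once in the Pou5f1 window and in neither of the other two, and 47.3% of all promoter windows hold at least 1. Klf4, Klf2 and Sox2 stood above 95.4%, 93.2% and 91.4% of all promoters in CG number, Utf1 above 70.4% and Nanog above 28.8%. Of the 10 genes, 8 had a sequence in the promoter table, Klf5 and Sall4 being the others.

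Total read counts over positions ran from 197728785 to 255726544 in the lines and were 293920118 in round spermatids. At the 210 positions the median depth was 467 to 682 reads in the lines and 809 reads in round spermatids, and the shallowest position had 11 reads. Germ cell promoters were set beside the labels, though the list was chosen with earlier results of these data known and is no independent check. Of 6, 4 were measured, with means of 7.98% in the lines and 0.178% in round spermatids. Of these, 2 were called higher in the lines (edgeR), Asz1, a protein of the piRNA pathway (13.2%, against 0.0219%, adjusted p = 0.0478), and Dazl, an RNA-binding protein of germ cells (12.9%, against 0.0265%, adjusted p = 0.0496). Over all 8163 measured promoters, 8 were called higher in the lines by the same fit. Mael (3.92%, against 0.652%) and Ddx4 (1.89%, against 0.0102%) were not called, and leaving out any 1 line removed every call of this fit. Of 6 promoters of genes methylated on the maternal allele only, Plagl1 and Nnat were measured, with means of 0.367% in the lines and 0.0236% in round spermatids. No promoter of 6 genes of testis somatic cells was measured, so the share of such cells in the spermatid library was not tested. Of 6 fibroblast genes, which feeder cells would bring, only Twist2 was measured, with 10.9% in the lines and 0% in round spermatids.

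In round spermatids the high methylation of the pluripotency factors lay outside the measured promoters, and at nearly all such positions the AG-haESC lines held much less of it. Of the 210 positions, 27 (12.9%) were over 90% methylated in round spermatids, against 19.7% of all 232840 positions. They lay in Esrrb (13), Klf5 (4), Sall4 (4), Utf1 (3), Pou5f1 (2) and Lin28a (1). At 153 positions, 72.9% of the total, all 6 libraries were under 1%, against 63.1% of all positions. The mean level over the 210 positions was 2.02% ± 0.675 in the lines (SD, n = 5) and 14.6% in round spermatids, and every line lay under the spermatid value. Over all positions the means were 5.92% in the lines and 22.4% in round spermatids.

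A position was called where the mean of the lines and the spermatid level differed by at least 25 percentage points and the spermatid level lay outside the range of the lines. With 1 spermatid library this is a rule of size without a p-value, since an exact permutation test of 5 lines against 1 library has 6 splits and cannot go under 0.167. By it, 33 of the 210 positions (15.7%) were lower in the lines than in round spermatids, and none was higher. Over all 232840 positions, 21.2% were lower in the lines and 0.333% higher, so the share among the pluripotency factors was below that background. Esrrb had 14 of the 33, Sall4 5, Klf5 4, Utf1 3, Pou5f1 and Lin28a 2 each, Sox2, Klf2 and Klf4 1 each, and Nanog 0. A wider set, with at least 10 reads in round spermatids and in at least 3 lines, added 103 positions, of which 16 were lower in the lines and 0 higher. Over all genes this set added 110325 positions, 20.8% of them lower in the lines and 0.479% higher.

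How often a position was called differed with its place in the gene, among the pluripotency factors and among all genes. In promoters 1 of 54 positions was lower in the lines (1.85%), against 1.16% of promoter positions of all genes. In gene bodies it was 25 of 98 (25.5%, against 33.2%), in upstream flanks 4 of 14 (28.6%, against 19.8%) and in downstream flanks 3 of 44 (6.82%, against 16.7%). The 54 promoter positions were those of Klf5 (28), Sall4 (15), Utf1 (9) and Klf4 (2), so nothing here describes the promoters of the other 6 genes in all libraries. Those of Sall4, Utf1 and Klf4 all lay after the transcript start. Only Klf5, with positions from -202 to +236, was covered before its start in all libraries.

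**Figure D1:**
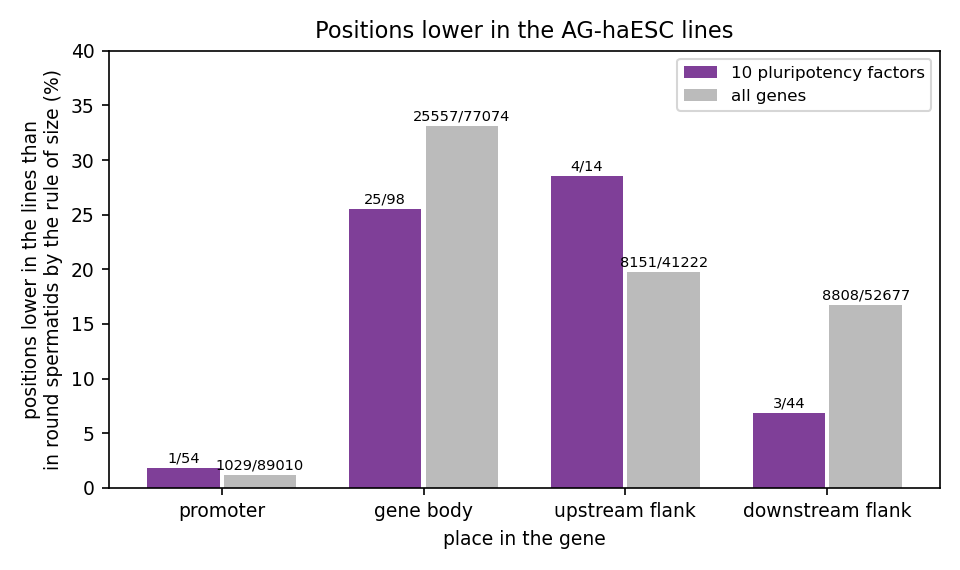
Share of positions that were lower in the 5 AG-haESC lines than in round spermatids by the rule of size (y axis, percent), by place in the gene (x axis), for the 10 pluripotency factors (purple) and all genes (grey), with the counts above each bar. Called positions were rare in promoters in both sets, 1 of 54 and 1029 of 89010.

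At the 27 positions over 90% in round spermatids, the mean levels were 6.99%, 12.9% and 7.80% in DKO replicates 1, 2 and 3 and 21.3% and 10.1% in WT replicates 1 and 2. At the 45982 such positions of the whole series the means were 17.7%, 24.5% and 17.4% in the DKO replicates and 27.0% and 14.2% in the WT replicates. The 27 were picked by their spermatid level, which the rule of size also uses, so a call was likely beforehand. Of the 27, 10 were under 10% in every line and 26 were called, counts not given here for the 45982. The exception was the Utf1 position at -6549, where WT replicate 1 had 100%. Neighbouring positions often share reads, so the 27 are not 27 independent observations.

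**Figure D2:**
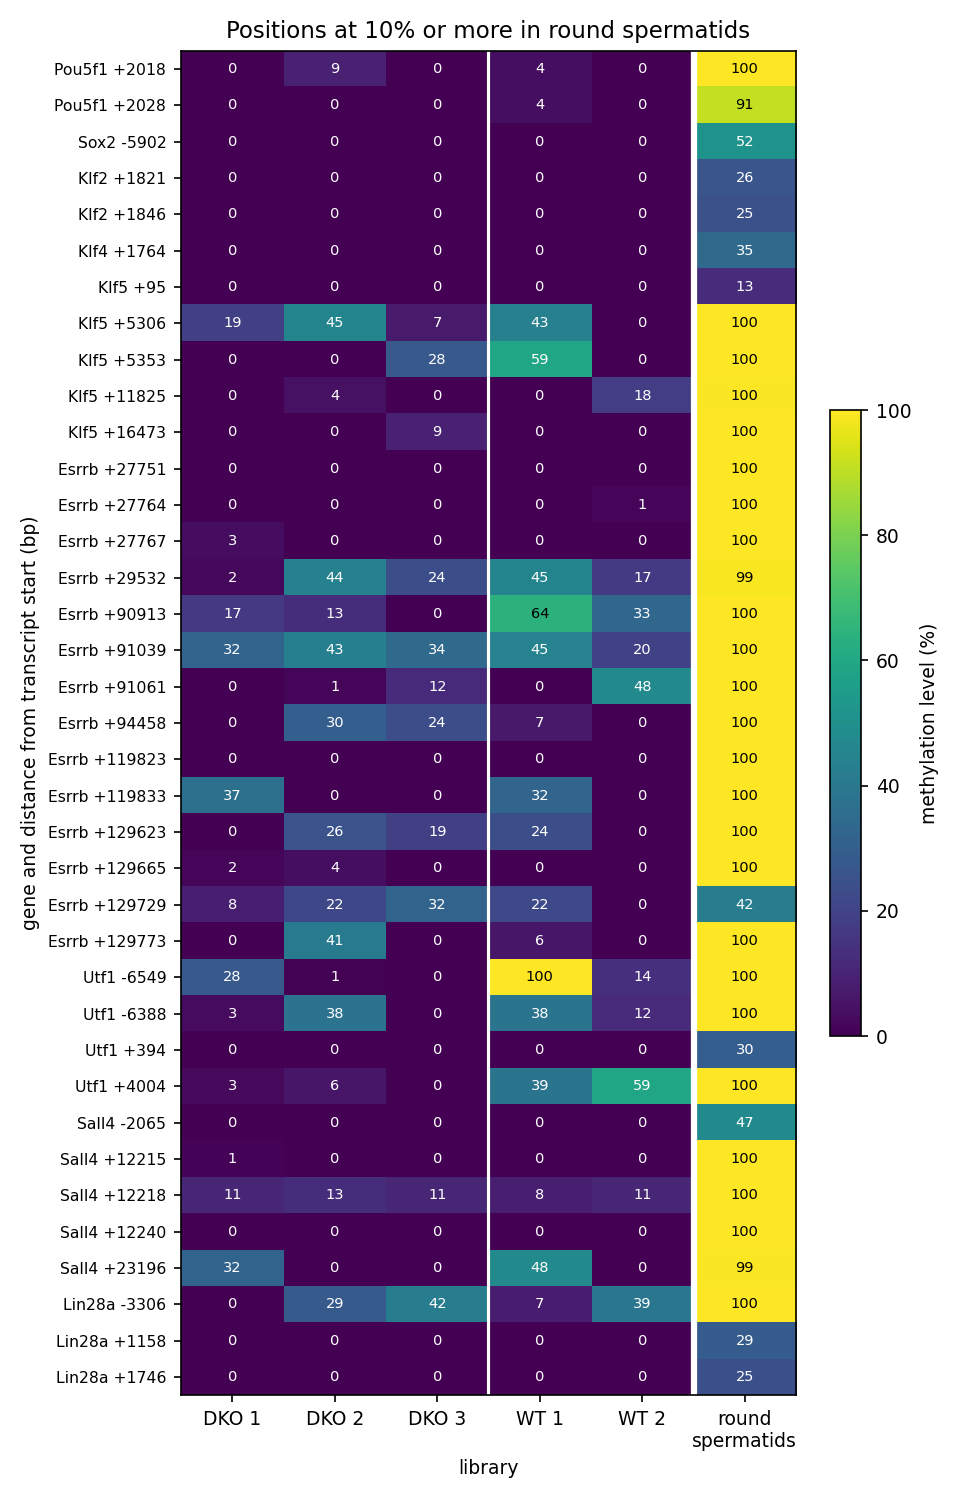
Methylation level (percent, colour and number) of the 37 positions of the 10 genes with at least 10% in round spermatids; rows are gene and distance from the transcript start, columns the 3 DKO lines, the 2 WT lines and round spermatids. The spermatid column is bright at 27 positions over 90%, and 4 of these reach 50% or more in any line.

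Utf1, a chromatin-associated protein of undifferentiated ES cells, was measured from +261 to +563 of its start, and this stretch was unmethylated in all libraries except at a single position. At +394 (chr7:139944250) the level was 0% in all 5 lines and 29.8% in round spermatids (489 of 1639 reads, Wilson 95% interval 27.7% to 32.1%). The other 8 promoter positions did not exceed 0.0611% in round spermatids, including +367 and +413 on either side, which had 0% in 998 reads and 0.0611% in 1638 reads there. The spermatid signal of the Utf1 promoter thus came from this 1 position.

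Summed over its reads, the Utf1 promoter had 0%, 0.111% and 0.0276% in DKO replicates 1, 2 and 3 and 0.0247% and 0.0243% in WT replicates 1 and 2, against 7.13% in round spermatids. The lines averaged 0.0375% ± 0.0426 (SD, n = 5), and their values did not overlap the spermatid value. With edgeR's quasi-likelihood test and Benjamini-Hochberg adjustment over all gene regions, the adjusted p was 0.0538, which missed 0.05. As the mean of the levels of the 9 positions, the difference (lines minus round spermatids) was -3.29 percentage points in place of -7.09. The 9 gene body positions from +517 to +563 did not exceed 0.264% in round spermatids.

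Outside the CpG-dense stretch Utf1 had 3 positions over 90% in round spermatids, and the lines varied there. At -6549, inside the neighbouring gene Kndc1, the level was 28.1%, 0.532% and 0% in the DKO replicates and 100% and 14.0% in the WT replicates, against 99.7% in round spermatids. At -6388, also inside Kndc1, it was 2.82%, 37.9% and 0% in the DKO replicates and 38.5% and 11.8% in the WT replicates, against 100%. At -6167, where WT replicate 2 had too few reads, the level was 0% in every other line, against 100%. At +4004, beyond the gene, it was 2.68%, 5.97% and 0% in the DKO replicates and 38.5% and 59.3% in the WT replicates, against 100% from 40 reads. The 0% of DKO replicate 3 at +4004 rests on 11 reads. Every line was below round spermatids at -6388 and +4004, and the lines spanned the whole scale at -6549. A second unmethylated stretch from +6084 to +6980, partly inside Gm16201, did not exceed 0.474% in round spermatids, and its highest value in a line was 6.14%, at +6255 in DKO replicate 2.

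**Figure D3:**
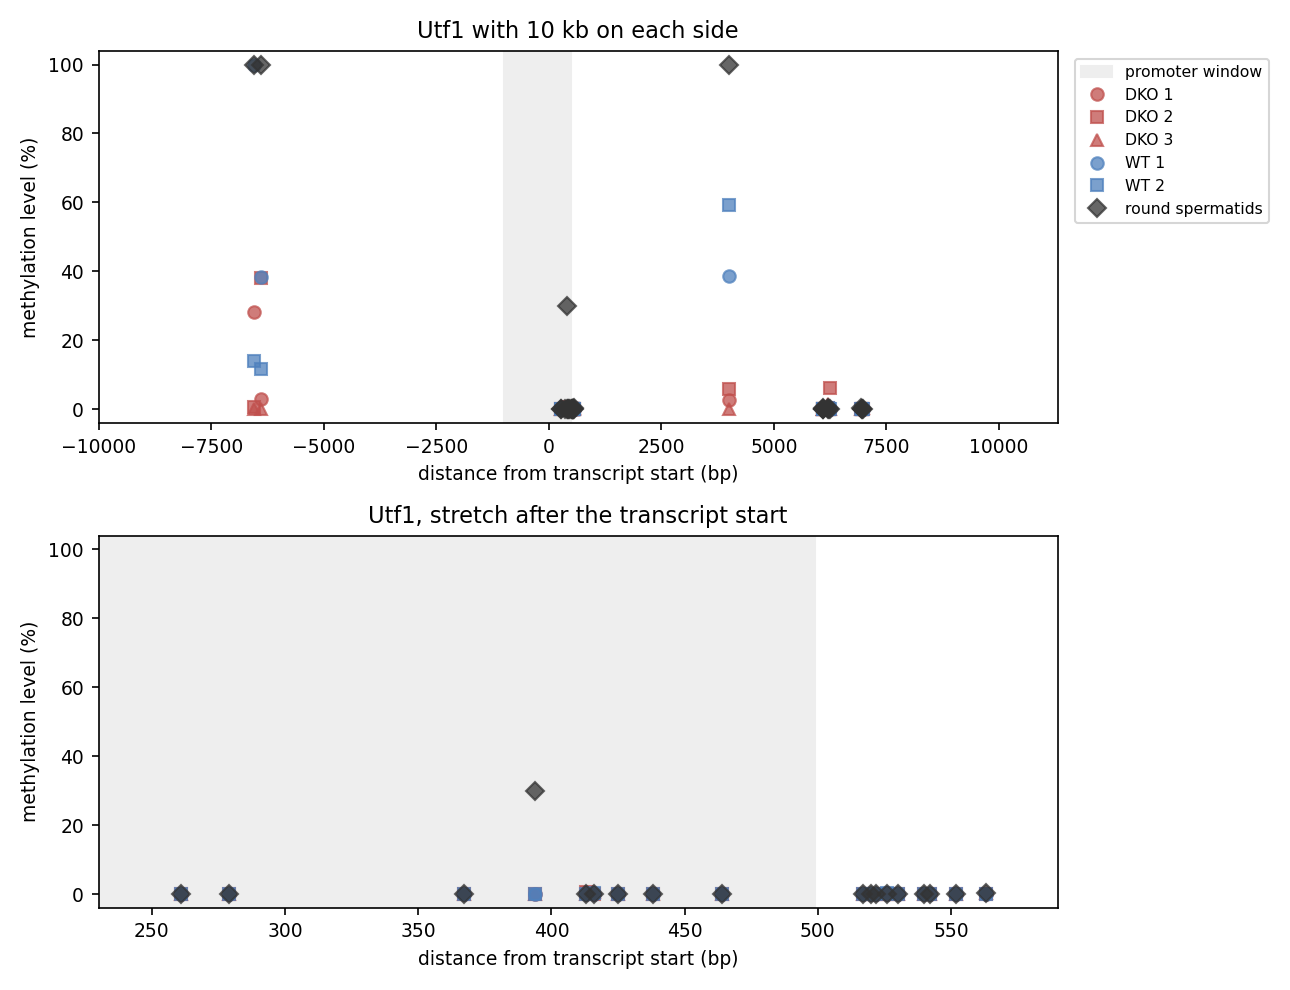
Methylation level (y axis, percent) of Utf1 positions by distance from the transcript start (x axis, bp), over the gene with 10 kb on each side (top) and over the stretch after the start (bottom); red symbols are DKO lines, blue WT lines, black diamonds round spermatids, and grey the promoter window. The position at +394 stands at 29.8% in round spermatids among neighbours near 0%.

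By a rule of likeness (the smallest Euclidean distance between the 6 library levels, over promoters with at least 10 positions), the promoters most like that of Utf1 among 4435 were Wwc2, Tmem35b and Rab3gap2. Their levels were 0.0236%, 0.0364% and 0.0239% as means of the lines, against 6.52%, 7.84% and 5.57% in round spermatids.

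The Krüppel-like factors Klf5, Klf4 and Klf2 are zinc-finger transcription factors that help to hold the naive state, and their CpG-rich starts were unmethylated in the lines. Klf5 had 28 promoter positions from -202 to +236, of which 26 were under 1% in all 6 libraries. At +95 the level was 0%, 0.131% and 0% in the DKO replicates and 0.0597% and 0% in the WT replicates, against 12.6% in round spermatids (201 of 1600 reads). This was the highest of the 28 in round spermatids, the next being 0.126%. The Klf5 promoter as a whole averaged 0.0384% ± 0.0347 in the lines (SD, n = 5), against 0.775% in round spermatids (adjusted p = 0.207, edgeR).

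The Klf5 gene body was methylated in round spermatids at its 3 measured positions. At +5306 the level was 19%, 45.0% and 7.32% in the DKO replicates and 43.5% and 0% in the WT replicates, against 100% in round spermatids from only 13 reads. At +5353 the 13 spermatid reads also gave 100%, and DKO replicate 3 and WT replicate 1 had 27.8% and 59.1% while the other lines had 0%. At +11825 the lines averaged 4.5% ± 7.86 (SD, n = 5), against 99.6% in round spermatids from 225 reads. The 3 gene body positions together had 8.94%, 10% and 4.03% in the DKO replicates and 39.8% and 15.1% in the WT replicates, against 99.6% in round spermatids, with an adjusted p of 0.0594 (edgeR). Downstream, at +16473, the lines had 0% except DKO replicate 3 with 9.30%, against 100% in round spermatids.

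Klf4 was covered in all libraries from +1647 to +1879 of its gene body, where round spermatids held low to intermediate levels. The highest was at +1764, with 0%, 0.0842% and 0% in the DKO replicates and 0% and 0.110% in the WT replicates, against 34.5% in round spermatids (415 of 1202 reads). At +1720, +1737, +1740 and +1755 round spermatids had 9.61%, 5.65%, 9.50% and 9.51% in 8055 to 8095 reads each. The lines were under 1% at these 4 positions except WT replicate 1 at +1755, which had 18.3%. The gene body averaged 0.678% ± 1.47 in the lines (SD, n = 5), against 7.55% in round spermatids (adjusted p = 0.168, edgeR), and WT replicate 1 with 3.31% stood apart from the other lines. The 2 Klf4 promoter positions were under 1% in every library.

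Klf2 had 4 gene body positions and 2 of them were partly methylated in round spermatids. At +1821 every line had 0%, against 26.4% in round spermatids (124 of 469 reads). At +1846 every line had 0%, against 24.9% (117 of 469 reads), a difference just short of the 25 points of the rule, as +1821 was just past it. The other 2, at +1804 and +1915, had means of 0.139% and 0.867% in the lines, against 0.660% and 0% in round spermatids. In the 250 bases before the Klf2 start, 6 or 7 positions reached 10 reads in each library except WT replicate 2, which had none, and none of them exceeded 0.444% in any library.

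Esrrb, an orphan nuclear receptor of the naive state, had all 39 of its measured positions in its long gene body. Of these, 14 were called, against 33.2% of the gene body positions of all genes. Its 39 positions fell into 8 clusters, and in 6 clusters round spermatids were methylated. At +27751, +27764 and +27767 the 49 spermatid reads were all methylated (100%), while no line exceeded 3.28%. The 3 positions lie close together and had equal read numbers in round spermatids, so they may rest on the same reads.

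Further along the gene the lines kept part of the methylation at some positions. At +29532 the level was 1.98%, 44.0% and 24.1% in the DKO replicates and 45.3% and 16.8% in the WT replicates, against 98.9% in round spermatids. At +91039 it was 31.9%, 43.2% and 34.5% in the DKO replicates and 44.5% and 19.7% in the WT replicates, against 100%. At +90913 it was 16.7%, 13.0% and 0% in the DKO replicates and 64.1% and 33.1% in the WT replicates, against 100%. Every line was below round spermatids at all 3 positions, and at +90913 the DKO lines did not overlap the WT lines. At +91061 the lines averaged 12.3% ± 20.5 and at +94458 12.1% ± 13.9 (SD, n = 5), against 100% in round spermatids at each. At +91061 WT replicate 2 was highest of the lines with 47.9%, and at +94458 DKO replicate 2 with 29.9%.

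Neighbouring positions could differ. At +119823 no line exceeded 0.115%, while at the neighbouring +119833 DKO replicate 1 and WT replicate 1 had 36.7% and 32.5% and the other lines at most 0.212%. Round spermatids had 100% and 99.7% at this pair. The mean of the 2 positions at +119823 and +119833 was 6.98% over the lines, against 99.9% in round spermatids. In the last cluster, from +129623 to +129773, the means were 2.65%, 23.1% and 12.7% in the DKO replicates and 13.0% and 0.0282% in the WT replicates, against 85.5% in round spermatids. At +129623, +129665 and +129773 the lines averaged 13.8%, 1.18% and 9.45%, against 100%, 100% and 99.8% in round spermatids. In this cluster +129729 was partly methylated in both, with a mean of 16.8% ± 12.6 in the lines (SD, n = 5), against 42.3% in round spermatids.

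RefSeq gives Esrrb a second start inside the gene, and a cluster of 21 positions, from +60705 to +62043, lay wholly after it. These were unmethylated in round spermatids, none over 0.110%. Of these, 11 lay in the promoter window of the second start, where pooled levels in the lines did not exceed 0.370%, against 0.0147% in round spermatids. The highest single value in that window was 7.21%, at +60743 in DKO replicate 1 (47 of 652 reads). One position of the cluster, +62034, chosen after its values were seen, had 3.95%, 9.72% and 31.9% in the DKO replicates and 6.01% and 0% in the WT replicates, against 0.0924% in round spermatids. Over the whole gene body, pooled reads gave 1.88% ± 0.729 in the lines (SD, n = 5), against 7.48% in round spermatids (adjusted p = 0.191, edgeR), while the mean over positions was 34.4% in round spermatids, since the unmethylated stretches held most reads.

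At the first Esrrb start no position had 10 reads in all libraries. The position at -567, also chosen after its values were seen, was covered in the lines but not in round spermatids, and it was 99.5%, 76.5% and 0% methylated in DKO replicates 1, 2 and 3 (211, 102 and 50 reads) and 66.5% and 98.9% in WT replicates 1 and 2 (173 and 90 reads). DKO replicate 3 thus stood apart from the other 4 lines at this position.

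**Figure D4:**
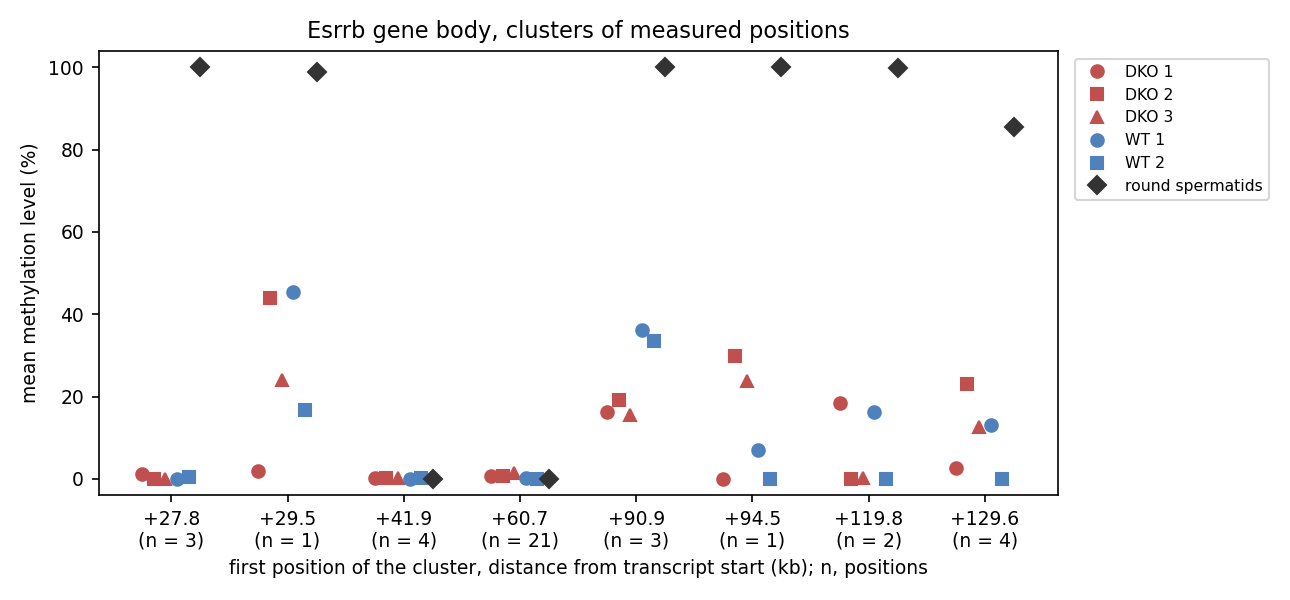
Mean methylation level (y axis, percent) over the positions of each of 8 clusters in the Esrrb gene body, by distance of the cluster's first position from the transcript start (x axis, kb); red symbols are DKO lines, blue WT lines, black diamonds round spermatids. Round spermatids are above 85% in 6 clusters and near 0% in the clusters that begin at +41879 and +60705 bp, and all lines lie under 50%.

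Pou5f1 encodes Oct4, the POU-domain factor at the centre of the pluripotency network, and its gene body was methylated in round spermatids and nearly unmethylated in the lines at the 2 positions that could be compared. At +2018 (chr17:35508050) the level was 0%, 9.19% and 0% in the DKO replicates and 3.65% and 0% in the WT replicates, against 100% in round spermatids from 20 reads (Wilson 95% interval 83.9% to 100%). At +2028 it was 0%, 0.322% and 0% in the DKO replicates and 3.67% and 0% in the WT replicates, against 90.9% from 22 reads (72.2% to 97.5%). All lines lay far below round spermatids, and only the 2 lines named OG3 had any methylated reads. They stand at -757 and -747 of a second start that RefSeq gives.

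Reads over Pou5f1 were not spread evenly over the libraries. Summed over the gene and 10 kb on each side, reads scaled to the library's total (RPM) were 22.5, 203 and 15.2 in DKO replicates 1, 2 and 3 and 199 and 19.3 in WT replicates 1 and 2, against 1.56 in round spermatids. The lower of the 2 OG3 lines was 8.86 times the highest of the other libraries. Among 19016 genes with at least 100 reads in each library, 2 reached that ratio, Pou5f1 included, and the next of the 10 factors, Lin28a, had 1.10.

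The gene body accounted for most of the difference, with 172 and 169 RPM in DKO replicate 2 and WT replicate 1 and 7.56 to 10.4 in the other lines. In the promoter these 2 lines had 10 and 11 positions of at least 10 reads, with pooled levels of 0.209% and 0%. The other libraries had 0 to 3 such positions there, with no methylated read. The Pou5f1 levels of the OG3 lines rest on those extra reads, whose origin was not tested; in the 3 lines without that name both compared positions were at 0%.

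**Figure D5:**
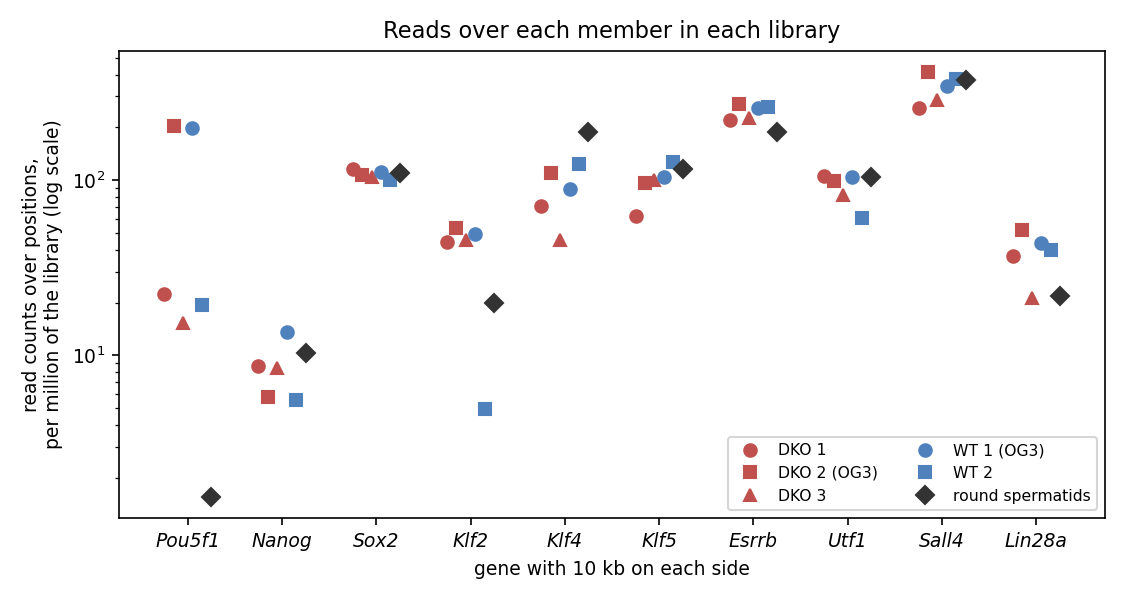
Read counts over the positions of each gene with 10 kb on each side, scaled to the library's total (RPM; y axis, log scale), for the 10 pluripotency factors (x axis); red symbols are DKO lines, blue WT lines, black diamonds round spermatids, with the lines named OG3 marked. At Pou5f1 the 2 OG3 lines stand at 203 and 199, apart from the other lines at 15.2 to 22.5.

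Sox2, the HMG-box partner of Oct4, was unmethylated in its CpG-rich gene body in every library. Its 14 gene body positions, from +583 to +1126, did not exceed 0.127% in round spermatids, and the pooled level was 0.03% ± 0.0117 in the lines (SD, n = 5), against 0.0152% in round spermatids. In the promoter sequence shown, 11 positions had at least 10 reads in round spermatids and 0, 11 and 4 in the DKO replicates and 12 and 8 in the WT replicates, with no position over 0.498% in any library.

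The upstream flank of Sox2, inside the long non-coding transcript Sox2ot, held 2 neighbouring positions with opposite differences. At -5902 every line had 0%, against 51.5% in round spermatids (947 of 1838 reads). At -5951 the level was 28.2%, 36.2% and 99.8% in the DKO replicates and 0% and 32.1% in the WT replicates, against 0.528% in round spermatids. WT replicate 1 was the 1 line that did not exceed round spermatids there, so the position was not called; without that line it would be the single position of the 210 called higher in the lines. The positions at -5831, +6634 and +6672 averaged 8.93%, 2.08% and 3.86% in the lines, against 5.26%, 0% and 4.76% in round spermatids, which lay inside the range of the lines or on its edge.

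Sall4, a zinc-finger factor of ES cells and germ cells, was unmethylated at its start and methylated further into the gene in round spermatids. None of its 15 promoter positions, from +151 to +289, had a methylated read in round spermatids, each with 475 to 875 reads. In the lines the promoter averaged 0.173% ± 0.343 (SD, n = 5), and DKO replicate 1 with 0.787% stood apart. That value came from +256, chosen after its values were seen, where DKO replicate 1 had 18.5% and every other library 0%.

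In the Sall4 gene body 3 neighbouring positions were nearly or fully methylated in round spermatids. At +12218 the level was 10.8%, 13.2% and 10.6% in the DKO replicates and 8.48% and 10.8% in the WT replicates, against 100% in round spermatids from 276 reads. At +12215 and +12240 no line exceeded 0.939%, against 100% and 99.6% in round spermatids. The lines were alike at +12218, with an SD of 1.66 points, whereas elsewhere they scattered: at +23196, downstream, the level was 31.8%, 0.153% and 0% in the DKO replicates and 48.0% and 0% in the WT replicates, against 99.3%. At -2065 the lines had at most 0.209%, against 47.3% in round spermatids (71 of 150 reads).

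Lin28a, the RNA-binding protein that blocks maturation of let-7 microRNAs, had no promoter position with 10 reads in any library. In its gene body, +1158 and +1746 had 0% in every line, against 29% (117 of 404 reads) and 24.6% (121 of 492 reads) in round spermatids. The other 2 measured gene body positions, at +1152 and +1712, had 0.248% and 0% in round spermatids. The gene body averaged 0.305% ± 0.371 in the lines (SD, n = 5), against 13.4% in round spermatids. Its adjusted p of 0.0524 (edgeR) was the lowest of the 10 genes. Upstream, at -3306, the level was 0%, 28.5% and 42.0% in the DKO replicates and 7.49% and 39.4% in the WT replicates, against 100% in round spermatids.

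Nanog, the homeodomain factor of the naive epiblast, was represented by 2 positions in its upstream flank. At -4625 and -4615 no line exceeded 0.641%, against 0.278% and 0.0381% in round spermatids. No position of its CpG-poor promoter had 10 reads in any library, so the Nanog promoter was not measured here.

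In the fit across all genes, 820 of 23536 gene regions were called between the lines and round spermatids, 773 lower in the lines (3.28%) and 47 higher (0.2%). Of the 15 regions of the 10 genes that were tested, none was called, and 7 had an unadjusted p under 0.05, as had 5336 of all regions (22.7%). On simulated data, whose changes were smaller than the widest differences seen here, this fit recovered no change against the lone spermatid library. A region without a call therefore cannot be taken as unchanged. By limma and by edgeR with a dispersion for each region, the Klf5 gene body, the Lin28a gene body and the Utf1 promoter were called lower in the lines, 3 of 15. Of all regions limma called 12.4% lower and 0.93% higher in the lines, and edgeR with a dispersion for each region 12.1% lower and 1.19% higher. Leaving out any 1 line removed all 820 calls.

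The measured promoters of other genes of the pluripotency network were unmethylated or nearly so in both kinds of cell, apart from Foxd3. The Foxd3 promoter had 0.0385%, 7.19% and 0% in DKO replicates 1, 2 and 3. It had 0.0142% and 1.40% in WT replicates 1 and 2, against 1.54% in round spermatids. Of 30 such genes, 8 had a promoter with at least 3 measured positions (Tfcp2l1, Zfp281, Stat3, Tcl1, Lifr, Foxd3, Fgf4 and Zfp42), and none was called. Their median difference (lines minus round spermatids) was 0.00268 percentage points, against 0.00740 over 8163 promoters and -0.736 over the 3 promoters of Klf5, Sall4 and Utf1. By the rule of size 1.74% of all promoters were lower in the lines and 0.049% higher, and 0 of the 3 and of the 8 in either direction. Of 6 formative and primed genes only Fgf5 was measured, with 0.332% in the lines and 0.00862% in round spermatids.

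Between DKO and WT lines the pluripotency factors showed no called region. The fit called 0 of 23536 regions, with 693 (2.94%) at an unadjusted p under 0.05, while limma called 0 and edgeR with a dispersion for each region called 15, none of them in the 10 genes. Of the 15 regions of the 10 genes, 2 had an unadjusted p under 0.05, the downstream flanks of Utf1 and Sox2, each with an adjusted p of 1 (edgeR). An exact permutation test of 3 against 2 lines has 10 splits and cannot go under 0.1. Position by position, the absolute difference was under 1 percentage point at 174 of the 210 positions, with a median of 0.0225. At 153 of them (72.9%, against 63.1% of all positions) all 6 libraries were under 1%, which alone keeps the difference that small. The 174 and the median therefore mostly describe unmethylated positions.

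The DKO values lay wholly below the WT values at 2 positions (0.952%, against 3.39% of all positions) and wholly above them at 5 (2.38%, against 2.36%). By the rule of size 2 positions were lower in DKO lines, against a background of 1.36%, and none was higher, against 0.922%. These 2 were Utf1 +4004, with means of 2.88% in DKO and 48.9% in WT lines, and Esrrb +90913, with means of 9.88% in DKO and 48.6% in WT lines. At +4011 beside the Utf1 position, where DKO replicate 3 had too few reads, DKO replicates 1 and 2 had 57.9% and 11.1% and WT replicates 1 and 2 had 47.1% and 18.6%, so DKO and WT lines overlapped there. Both called positions were fully methylated in round spermatids, and the 5 positions higher in DKO lines differed by 0.0991 to 6.10 points.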

How the data were processed

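Per the labels' protocols, MspI fragments with methylated adapters were size-selected, bisulfite-treated and amplified. Bismark 0.12.2 and mm10 are the tool and build in the submitters' processing notes; how reads were trimmed, deduplicated or merged over strands is not given in the sources used here. Per the file headers, each deposited file gives, per position, methylated and unmethylated read counts and the level as a fraction. The deposited fraction equalled methylated over all reads within 1e-09. All 34196 kept positions that fell inside a RefSeq promoter sequence (GRCm38.p6) lay at a CG.

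The genes and lists were chosen with earlier results of these data known. All 10 factors are named, with up to 5 positions of widest difference each and any called by the rule of size; of other lists, genes called by a test, and the 3 promoters most like that of Utf1. Starts and strands came from the RefSeq promoter table, except for Klf5 (plus) and Sall4 (minus), where the strand is general knowledge and the start is the gene end. Exons, introns and UTRs were not assigned, and flanks can hold neighbouring genes. Levels of a region pool the reads of its positions, so deep positions weigh more. Wilson 95% intervals cover counting error only, since amplified reads that carry no molecular identifier can be copies of 1 molecule.

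Gene regions with at least 3 positions of 10 reads in all libraries were tested in edgeR 4.0.16 (quasi-likelihood; R 4.3.3, limma 3.58.1) on both counts, with a term per library, group by methylation terms and a common dispersion, two-sided, with Benjamini-Hochberg adjustment over all regions. The round spermatids are 1 library, which the fit assumes to vary like the lines. The current form of the fit was chosen over the older one after tests on simulated data; there the current one alone recovered changes in DKO lines, and neither recovered changes against the lone spermatid library. The other tables used Python 3.11.15, pandas 2.3.3 and scipy 1.17.1. Alternatives were coverage minimums of 5 and 20 reads, differences of 10 and 50 points, position means, a narrower promoter, other dispersions, limma, and leaving out each line.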

Additional observations from a re-analysis of the deposited data

Results flagged for a closer look

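In 5 of the 15 tested regions of the 10 genes 1 line stood far from the other 4. For normally distributed values chance gives about 1 in 20 groups. These levels lie near 0% and were not shown to be normal, so no excess over chance can be read from the 5. DKO replicate 1 had 0.787% in the Sall4 promoter and 0.940% in the Lin28a gene body. DKO replicate 2 had 0.111% in the Utf1 promoter and 1.80% in the Klf2 gene body. WT replicate 1 had 3.31% in the Klf4 gene body. All these levels are low, and each came wholly or mostly from 1 position. For Utf1 this was +413, with 0.490% in DKO replicate 2, and for Lin28a +1152, with 3.89% in DKO replicate 1.

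In 2 downstream flanks the DKO lines lay below round spermatids and the WT lines above them. DKO minus WT was -3.47 percentage points in Sox2 and -3.51 points in Utf1, with an adjusted p of 1 for each (edgeR), and both regions were among those with an unadjusted p under 0.05. In Sox2 the spermatid level was 1.23% of 81 reads, and its Wilson 95% interval (0.218% to 6.67%) held both WT values, 3.75% and 3.58%. The WT values came from different positions, +6672 in WT replicate 1 (16.7%) and +6634 in WT replicate 2 (10.4%). The Utf1 difference came mainly from +4004, which held 38.5% and 59.3% in the WT lines, and the direction against round spermatids depended on pooling: as position means, the difference between the lines and round spermatids was -6.00 in place of 0.908.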

How the results depend on the processing

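The 33 called positions became 24 to 49 under the other alternatives, all of them lower in the lines, and 32 to 35 when 1 line was left out, where leaving out WT replicate 1 gave 1 higher. The median promoter difference of -0.371 percentage points became -0.189 as position means. The median regional difference of -6.88 became -5.40 at 20 reads and -12.8 as position means. The 820 region calls became 3120 with a dispersion per region, 3129 with limma, 369 with regions of 1 position or more, 0 with the older quasi-likelihood fit (chosen after seeing the data), 0 with the replicate block (where round spermatids are set against the lines named AGH-2), and 0 to 0 when 1 line was left out. The 0 calls among regions of the 10 genes became 1 at a minimum of 5 reads, 3 with a dispersion per region and 3 with limma. The 0 calls between DKO and WT lines became 15 with a dispersion per region and stayed 0 with the replicate block. The block pairs lines by the name in their titles, DKO replicate 2 with WT replicate 1 (OG3) and DKO replicate 3 with WT replicate 2 (AGH-2), and DKO replicate 1 has no partner. Of 186 values of single regions under alternatives, 176 moved by less than the spread between the lines and 10 by more, and 9 changed sign, all of them from values that were not called. The cause of these changes was not tested, beyond the fewer samples or positions that an alternative leaves. Pou5f1, Nanog and Klf2 have 2 to 4 positions, and the 13 to 22 spermatid reads at some positions of Klf5 and Pou5f1 allow wide intervals.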

Other observations

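Some partly methylated positions of these genes stood beside unmethylated ones. Of 10 positions between 10% and 90% in round spermatids, 9 had another measured position within 50 bp, and in 5 of the 9 (55.6%) the nearest such neighbour on each side was under 1%, against 1617 of 9882 (16.4%) over all positions. In the lines the same share was 6 of 6, 3 of 7 and 5 of 8 in DKO replicates 1, 2 and 3 and 5 of 8 and 3 of 5 in WT replicates 1 and 2, against 30.2%, 19.7%, 31.6%, 19.3% and 31.8% over all positions. The 5 of round spermatids were Utf1 +394, Klf5 +95, Lin28a +1158 and +1746, and Sox2 -5902. At Utf1 +394, Lin28a +1158, Lin28a +1746 and Sox2 -5902 none of the 5 lines had a methylated read. At Lin28a +1148, beside +1158 but without 10 reads in every line, round spermatids had 35.8% of 327 reads, so +1158 does not stand alone in a wider set. The counts are small, the pattern was chosen after the values were seen, and its cause was not tested.

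The lines showed isolated positions too, at other places than round spermatids, and some were shared between lines. Sall4 +12218 had 10.8%, 13.2% and 10.6% in DKO replicates 1, 2 and 3 and 10.8% in WT replicate 2. No line exceeded 0.939% at +12215 and +12240 beside it. Sox2 -5951 had 28.2% and 36.2% in DKO replicates 1 and 2 and 32.1% in WT replicate 2, beside 0% at -5902. Other isolated positions were seen in a single line. Sall4 +256 was at 18.5% in DKO replicate 1 alone, Klf4 +1755 at 18.3% in WT replicate 1 alone among the lines, and Sall4 +25445, inside the neighbouring gene Atp9a, at 17.5% in DKO replicate 3 alone, where no other library exceeded 0.870%.

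Of the 103 positions added by the wider set, 33 were in promoters. Sox2 gained 11 promoter positions from -187 to -66 and Klf2 12 from -339 to -203, and these did not exceed 0.376% and 0.444% in any line, against 0.173% and 0% in round spermatids. The 16 of them that were called, all lower in the lines, were 6 in Sall4, 4 in Klf5, and 2 each in Esrrb, Utf1 and Lin28a. At Lin28a +12655 WT replicate 2 had 99.0% and the other 3 covered lines 0%, against 100% in round spermatids. At Esrrb +146781 DKO replicate 3 had 75.3% and the other covered lines 0%, against 100% in round spermatids.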
